A study of Homo sapiens with 6 samples.

Results

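Pericellular proteolysis was described through 10 genes in SK-N-BE(2) cells: the matrix metalloproteinase genes MMP2, MMP11, MMP14, MMP15, MMP16 and MMP24, and the inhibitor genes TIMP1, TIMP2, TIMP3 and RECK. They were taken by symbol, through their Ensembl identifiers in GENCODE 29, and all 10 were found among the 32434 gene identifiers of the deposited table. SK-N-BE(2) is an established human neuroblastoma line, and the series title places the zinc-finger protein MYT1, which regulates transcription in developing neurons, between differentiation and retinoic acid signalling. In 3 libraries, called shMYT1, the cells carried a hairpin that targets MYT1, and in the other 3, called shNC, a control hairpin. Both were made with lentivirus, 24 h of infection and 48 h of puromycin. The genotype field calls the first group a knockout while the protocol calls it a knockdown, and it is treated here as a knockdown. The labels name 1 parental line, do not say how many hairpins were used, and do not say that replicates came from separate cultures. The p-values therefore reflect only how far these libraries differ from each other, which may be technical.

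Matrix metalloproteinases are zinc-dependent enzymes made as inactive precursors, which together cleave collagens, other matrix proteins and many cell-surface proteins. MMP2 (gelatinase A) is secreted, and its precursor is activated at the cell surface by a complex in which MMP14 holds TIMP2 and TIMP2 holds the precursor. MMP11 and the membrane-type enzymes MMP14, MMP15, MMP16 and MMP24 are activated inside the cell by furin-like convertases. TIMP proteins block the active site, and RECK is a membrane-anchored inhibitor that also serves as a co-receptor for Wnt7 ligands. In neuroblastoma, as in other solid tumours, these proteins are studied for their part in invasion and matrix turnover.

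The 6 metalloproteinase genes all differed between the groups, in both directions, while none of the 3 inhibitor genes that could be tested passed the threshold. MMP2 and MMP15 rose and MMP11, MMP14, MMP16 and MMP24 fell in shMYT1 cells. TIMP1, TIMP2 and RECK did not pass, and TIMP3 was too low to enter the test. This contrast holds for the 10 genes only: outside them MMP1 passed and MMP17 did not, and the inhibitor genes SPOCK1 and SPOCK2 both passed. Levels are in FPKM (fragments per kilobase of exon, scaled to sequencing depth). Different genes can be compared within a library only roughly, because the length counts all annotated exons of a gene, whichever transcripts the cells express. For MMP11 it was 5176 bases from 13 transcripts, and for MMP24 4414 bases from 1 transcript. The test was limma on log2(FPKM + 1) over the 14106 genes that averaged 1 FPKM or more, two-sided, with Benjamini-Hochberg adjustment over all of them and a threshold of 0.05. Fold changes are shMYT1 minus shNC on that scale, which understates the change of low genes. Of the 9 members tested, 6 passed, where 24.2% of all tested genes did. The members were chosen with earlier results of these data known, so these shares are no test of the set. For single directions, 11.9% of all tested genes rose and 12.3% fell. The groups did not overlap in the same 6 members, beside 42.3% of all tested genes, 20.5% with shMYT1 higher and 21.8% with it lower. The exact permutation test of a single gene cannot go under p = 0.1 with 3 libraries against 3. In bulk RNA, fewer cells that express a gene and less RNA per cell cannot be told apart.

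Facts of the whole series bear on these values as follows. The FPKM correspond to 18.16 to 20.30 M fragments per shMYT1 library and 21.08 to 21.68 M per shNC library. The targeted transcript, MYT1, averaged 5.34 ± 0.34 FPKM with the control hairpin and 4.23 ± 0.11 FPKM with the MYT1 hairpin (SD, n = 3 each). No library overlapped, and the log2 fold change was -0.28 (limma adjusted p = 0.0102). All 11 sympathetic neuroblast markers were tested, of which 4 rose and 3 fell, and they summed to 3399 to 3555 FPKM with the control hairpin and 2993 to 3083 FPKM with the MYT1 hairpin. MYCN, the highest, fell from 1892 to 1558 FPKM, and DBH, the lowest, rose from 5.62 to 10.5 FPKM. All 5 endothelial markers and all 5 leukocyte and macrophage markers lay under 1 FPKM, with summed levels of at most 0.371 and 1.32 FPKM in any library. Of 7 Schwann cell markers, 4 were found in the table and they summed to 2.10 to 2.25 FPKM with the control hairpin and 2.55 to 3.26 FPKM with the MYT1 hairpin. The 12 fibroblast and smooth muscle markers summed to 196 to 201 FPKM in shNC and 154 to 157 in shMYT1. In that list LUM, the highest, fell from 97.7 to 54.6 FPKM, which made up most of the fall of the sum. COL1A1 and DCN also fell, and COL3A1, PDGFRA, TAGLN and ACTA2 rose. THY1 (31.3 FPKM in shNC and 33.4 in shMYT1) and PDGFRB (23.9 and 21.6) did not pass, and FAP, POSTN and COL1A2 were near 0. The part of these markers in the results was not tested. After scaling all libraries to 1 common FPKM total, 36.4% of all calls were higher in shMYT1, against 49.2% as deposited, and the 6 member calls kept their directions.

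The metalloproteinases share a catalytic zinc site, and its coding sequence is shown for 5 of them so that the likeness of genes that moved in opposite directions can be seen. The sequences are from GENCODE 29 transcripts on hg38, 5′ to 3′ on the plus strand, 33 bases within 1 coding exon, and capitals mark the codons of the 3 histidines that bind the zinc.
MMP2: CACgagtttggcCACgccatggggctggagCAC
MMP15: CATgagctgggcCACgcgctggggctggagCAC
MMP11: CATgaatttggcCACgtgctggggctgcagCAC
MMP14: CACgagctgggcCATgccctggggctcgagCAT
MMP24: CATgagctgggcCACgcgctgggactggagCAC
They lie at chr16:55491827-55491859 in exon 8 of MMP2, chr16:58040563-58040595 in exon 5 of MMP15, chr22:23780885-23780917 in exon 5 of MMP11, chr14:22843283-22843315 in exon 5 of MMP14 and chr20:35263817-35263849 in exon 5 of MMP24. MMP15, which rose, and MMP24, which fell, had 32 of 33 bases in common, the most of any pair among the 5. MMP11 and MMP14, which both fell, had 23 of 33 in common, the fewest. These are likenesses of coding sequence only, and MMP16, which fell, was not compared. A link between likeness at this site and the direction of change was not tested.

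MMP2 was the most abundant of the 10 transcripts and changed the most. It was measured at 82.0, 80.5 and 86.8 FPKM in shNC libraries 1 to 3, and at 139, 139.9 and 147 FPKM in shMYT1 libraries 1 to 3. Every shMYT1 library lay above every shNC library, and the gap between the groups was far wider than the spread within either. The means were 83.1 ± 3.32 and 141.9 ± 4.13 FPKM (SD, n = 3 each), a ratio of 1.71. On the log2 scale this was a rise of 0.77, with an SE of 0.04 and a 95% interval of 0.68 to 0.85 (limma adjusted p = 9.08e-05). Among all 14106 tested genes, 77 (0.546%) rose by at least as much and passed. MMP2 drew 8332 to 13708 fragments in each library, so counting error is small beside the difference. MMP2 (ENSG00000087245) lies on the plus strand of chromosome 16, at 55389700 to 55506691 (hg38, GENCODE 29), and shares 174 of its exon bases with AC007336.3 on the same strand, a gene at 0.124 FPKM in shNC.

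MMP15, a membrane-type enzyme, was the other gene that rose, from a level far below that of MMP2. Its values were 3.34, 2.38 and 3.14 FPKM in shNC and 4.63, 5.04 and 4.75 FPKM in shMYT1, in replicate order. The groups did not overlap, although shNC replicate 2 lay apart from the other two control libraries. The means were 2.95 ± 0.51 and 4.81 ± 0.21 FPKM (SD, n = 3 each), a ratio of 1.63, and the rise on the log2 scale was 0.56, with an SE of 0.10 and a 95% interval of 0.33 to 0.79 (limma adjusted p = 0.00789). Its standard error was the widest among the 9 tested members, and it drew 221 to 408 fragments in each library. MMP15 (ENSG00000102996) lies at 58025566 to 58046901 on the plus strand of chromosome 16.

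**Figure D1:**
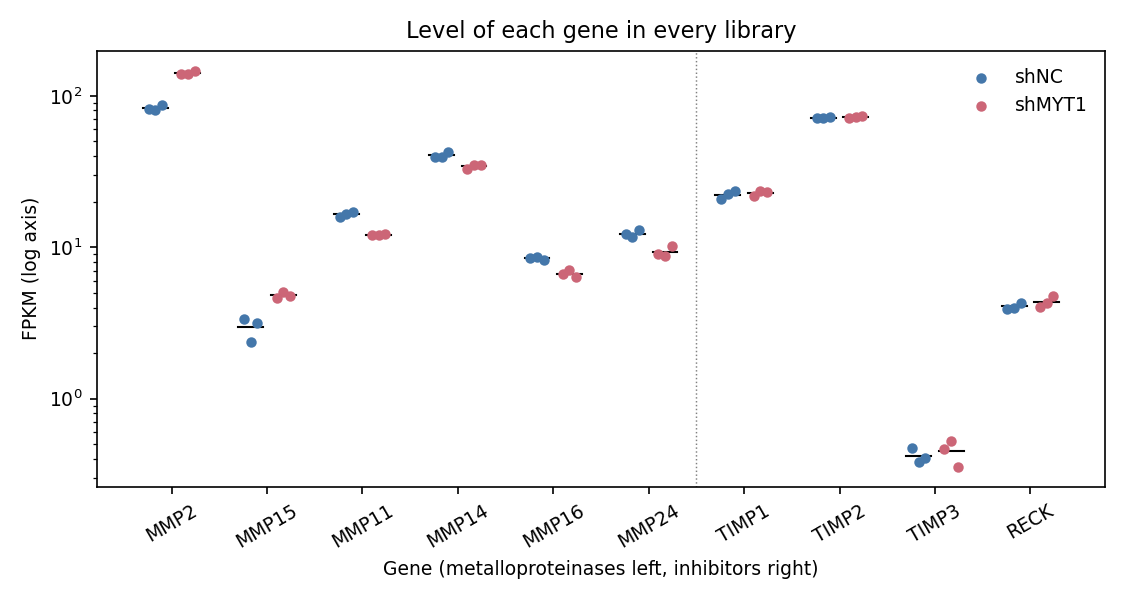
Level of each of the 10 genes in every library, in FPKM on a log axis, with shNC in blue and shMYT1 in red; points are libraries and short black lines are group means (n = 3 each). MMP2 and MMP15 sit higher in shMYT1, the 4 other metalloproteinases sit lower, and the points of the inhibitors overlap.

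Of the 4 genes that fell, MMP14 fell by 15.5% in its mean FPKM, MMP16 fell by 20.8%, MMP24 fell by 24.4% and MMP11 fell by 26.6%. MMP11 (stromelysin-3), a secreted enzyme that leaves the cell already activated, was at 15.8, 16.5 and 17.0 FPKM in shNC and 12.1, 12.0 and 12.2 FPKM in shMYT1. The shMYT1 libraries were nearly identical to each other and all below the controls. The means were 16.5 ± 0.60 and 12.1 ± 0.10 FPKM (SD, n = 3 each), and the log2 difference was -0.42 with an SE of 0.04 (limma adjusted p = 0.000587). MMP11 (ENSG00000099953, chromosome 22, 23768226 to 23784316, plus strand) shares 218 exon bases with CHCHD10 on the opposite strand, a gene that averaged 13.4 and 14.2 FPKM in the 2 groups and did not pass (limma adjusted p = 0.432). The labels state no strand setting, so fragments in those bases cannot be assigned with certainty.

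MMP14, the membrane-type enzyme that activates MMP2, was the most abundant of the genes that fell. It was at 39.3, 39.7 and 42.6 FPKM in shNC and at 33.1, 35.0 and 34.7 FPKM in shMYT1. All shMYT1 values lay below all shNC values, with the smallest relative change of the 6 metalloproteinases. The means were 40.5 ± 1.81 and 34.3 ± 1.05 FPKM (SD, n = 3 each), and the log2 difference was -0.24 with an SE of 0.04 and a 95% interval of -0.33 to -0.14 (limma adjusted p = 0.00802). MMP14 (ENSG00000157227) lies at 22836557 to 22849027 on the plus strand of chromosome 14. Thus the activator transcript and the transcript of its substrate moved in opposite directions.

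MMP24, a membrane-type enzyme of the nervous system known to cleave N-cadherin, was at 12.3, 11.7 and 13.0 FPKM in shNC and 9.02, 8.74 and 10.2 FPKM in shMYT1. The groups did not overlap, with shMYT1 replicate 3 the closest to the controls. The means were 12.3 ± 0.68 and 9.31 ± 0.76 FPKM (SD, n = 3 each), and the log2 difference was -0.37 with an SE of 0.06 (limma adjusted p = 0.00790). MMP24 (ENSG00000125966, chromosome 20, 35226654 to 35277000, plus strand) shares 799 of its 4414 exon bases with MMP24OS on the opposite strand. MMP24OS averaged 2.59 FPKM with the control hairpin and 3.21 FPKM with the MYT1 hairpin, which did not pass (limma adjusted p = 0.0791). The gene of N-cadherin, CDH2, rose from 36.98 to 41.5 FPKM (limma adjusted p = 0.0117).

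MMP16, the remaining membrane-type enzyme, was at 8.48, 8.62 and 8.30 FPKM in shNC and 6.70, 7.06 and 6.35 FPKM in shMYT1. These groups did not overlap either. The means were 8.47 ± 0.16 and 6.70 ± 0.35 FPKM (SD, n = 3 each), and the log2 difference was -0.30 with an SE of 0.04 (limma adjusted p = 0.00435). MMP16 (ENSG00000156103) lies at 88032009 to 88328025 on the minus strand of chromosome 8, among genes that were lower as a neighbourhood. The median log2 fold change of its 50 nearest tested genes was -0.21. With the running median of those neighbours removed from each library, the MMP16 value was -0.09 (limma adjusted p = 0.137), which ended its call. For the 5 other metalloproteinases the median of the neighbours lay between 0.003 and 0.04, and each kept its call after the same step. A median over 50 genes cannot register a change in only a few of them, such as the genes that follow MMP2, described below. For so short a stretch the step decides nothing.

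**Figure D2:**
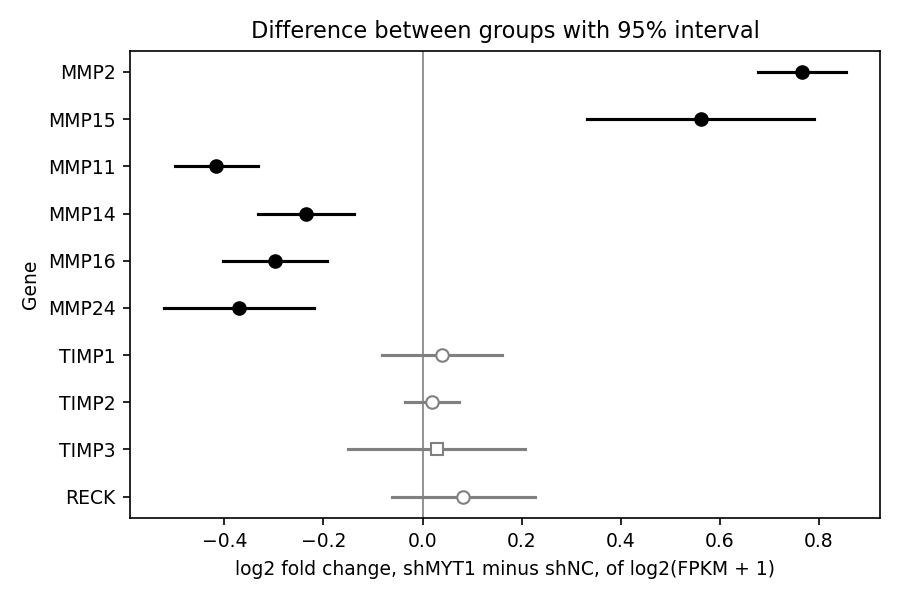
Difference in mean log2(FPKM + 1) of each gene, shMYT1 minus shNC, with 95% intervals from limma; filled black points passed the threshold, open grey points did not, and the open square is TIMP3, which was under the filter. The intervals of MMP2 and MMP15 lie above 0, those of MMP11, MMP14, MMP16 and MMP24 below 0, and those of the inhibitors include 0.

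TIMP2, which both inhibits metalloproteinases and takes part in MMP2 activation, was the second most abundant of the 10 transcripts and the steadiest. It was at 71.0, 71.7 and 71.9 FPKM in shNC and 71.7, 72.7 and 73.1 FPKM in shMYT1. The groups overlapped by a narrow margin. The log2 fold change was 0.02 (95% interval -0.03 to 0.07, limma adjusted p = 0.583), and the interval bounds the ratio of the groups to between 0.976 and 1.05 on that scale. The sign of this value turned with libraries scaled to a common total or quantile normalized, with values of -0.02 and -0.0017, neither of which passed. TIMP2 (ENSG00000035862) lies at 78852977 to 78925387 on the minus strand of chromosome 17, with 198 of its exon bases shared with CEP295NL on the same strand and 367 with AC022966.1 on the opposite strand.

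TIMP1, an inhibitor that acts weakly on membrane-type enzymes, was at 20.7, 22.6 and 23.4 FPKM in shNC and 21.9, 23.5 and 23.2 FPKM in shMYT1. The groups overlapped in part, with shNC replicate 1 below every shMYT1 library and the other two shNC libraries within the shMYT1 range. The log2 fold change was 0.04 (95% interval -0.08 to 0.16, limma adjusted p = 0.619). RECK was at 3.93, 3.97 and 4.29 FPKM in shNC and 4.06, 4.29 and 4.74 FPKM in shMYT1. Its groups also overlapped, and the log2 fold change was 0.08 (95% interval -0.06 to 0.23, limma adjusted p = 0.374), so a rise of up to 1.17-fold on that scale lies within the interval. TIMP3, which binds the matrix and also inhibits ADAM and ADAMTS enzymes, was at 0.475, 0.383 and 0.404 FPKM in shNC and 0.468, 0.528 and 0.355 FPKM in shMYT1. With 29 to 47 fragments per library it was under the filter of 1 FPKM, and in the fit without a filter its log2 fold change was 0.03 (95% interval -0.15 to 0.21, limma adjusted p = 0.88). TIMP1 lies on chromosome X at 47582313 to 47586789, RECK on chromosome 9 at 36036433 to 36124451 and TIMP3 on chromosome 22 at 32801701 to 32863043, all 3 on the plus strand.

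The coding sequences of the mature N-termini of the 3 TIMP proteins, the stretch that enters the active site of the enzymes, are shown because 2 of these transcripts were abundant and 1 was near the floor. They are from GENCODE 29 transcripts on hg38, 30 bases each, 5′ to 3′ in the sense of the gene, and capitals mark the codons of the 2 cysteines.
TIMP1: TGCaccTGTgtcccaccccacccacagacg
TIMP2: TGCagcTGCtccccggtgcacccgcaacag
TIMP3: TGCacaTGCtcgcccagccacccccaggac
They lie at chrX:47583485-47583514 on the plus strand, chr17:78924981-78925010 on the minus strand and chr22:32802071-32802100 on the plus strand. TIMP1 and TIMP3 had 18 of 30 bases in common, TIMP1 and TIMP2 also 18, and TIMP2 and TIMP3 had 19.

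The order of levels and the share of MMP2 depend on the exon lengths used, as stated above. The order was nearly the same in both groups. In shNC it ran, from high to low, MMP2, TIMP2, MMP14, TIMP1, MMP11, MMP24, MMP16, RECK, MMP15 and TIMP3, and no neighbours in that order overlapped over the 3 libraries. In shMYT1 cells MMP15 (4.63 to 5.04 FPKM) moved past RECK (4.06 to 4.74 FPKM), and these 2 were the only neighbours that overlapped. MMP2 alone made up 50.7% of the summed FPKM of the 6 metalloproteinases in shNC and 67.9% in shMYT1.

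The balance within a library followed from these changes. The size of each ratio also depends on the exon lengths used. The ratio of MMP2 to TIMP2 was 1.16 ± 0.04 in shNC and 1.96 ± 0.04 in shMYT1 (SD, n = 3 each), a difference of 0.75 on the log2 scale. The ratio of MMP14 to TIMP2 was 0.567 ± 0.023 in shNC and 0.473 ± 0.010 in shMYT1 (SD, n = 3 each), a difference of -0.26. The MMP2 to TIMP2 ratio was thus higher, and the MMP14 to TIMP2 ratio lower, in every shMYT1 library than in every shNC library. The 6 metalloproteinases summed to 164 ± 6.21 FPKM in shNC and 209 ± 5.20 FPKM in shMYT1, and the 3 TIMP genes to 94.2 ± 1.82 and 95.8 ± 1.49 FPKM (SD, n = 3 each). The ratio of these sums was 1.74 ± 0.05 and 2.18 ± 0.04 (SD, n = 3 each). The direction of the summed ratio rested on MMP2: without MMP2 and TIMP2 the ratio was 3.57 ± 0.16 in shNC and 2.88 ± 0.05 in shMYT1 (SD, n = 3 each), lower in every shMYT1 library. Each of these differences gave p = 0.1 in the exact two-sided permutation test over libraries, the smallest that 3 against 3 can give.

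**Figure D3:**
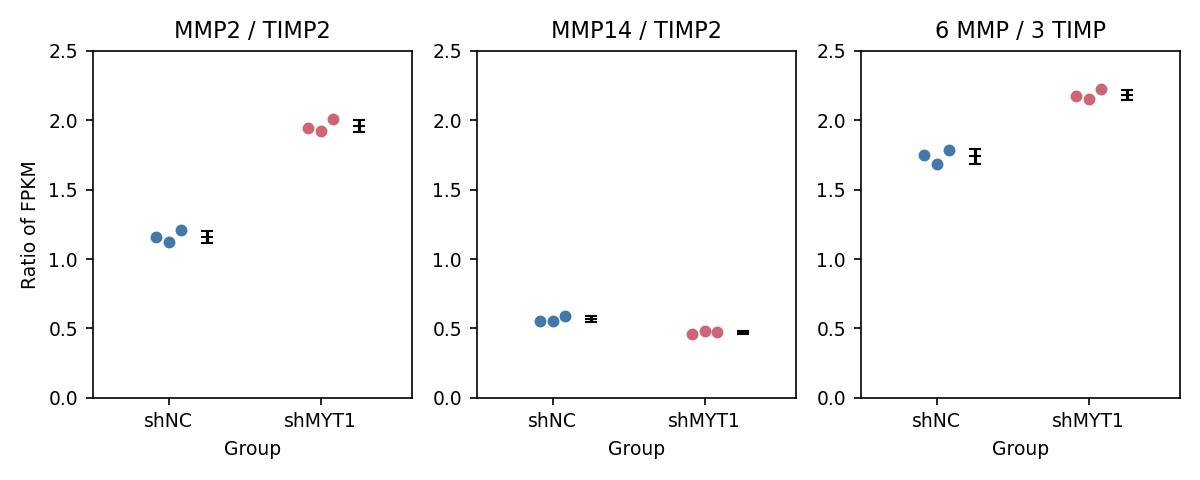
Ratio of FPKM within each library for MMP2 to TIMP2, MMP14 to TIMP2 and the sum of 6 metalloproteinases to the sum of 3 TIMP genes; points are libraries (shNC blue, shMYT1 red) and the black bars are mean and SD (n = 3). The first ratio goes from 1.16 to 1.96, the second from 0.567 to 0.473 and the third from 1.74 to 2.18.

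MMP2 and MMP15, the genes that rose, lie 2.64 Mb apart on the long arm of chromosome 16, so the tested genes around them were examined, a choice made after their values were seen. Between their starts 30 other tested genes begin, of which 9 rose and 2 fell, beside 11.9% and 12.3% of all tested genes. Their median log2 fold change was 0.02. The rises were not spread evenly. The 4 tested genes that follow MMP2 all rose. LPCAT2, which encodes a lysophospholipid acyltransferase, starts 119 kb from the start of MMP2, just past the end of the MMP2 span given above. It went from 5.17 ± 0.20 to 7.96 ± 0.49 FPKM (SD, n = 3 each), a log2 difference of 0.54 (limma adjusted p = 0.000947). SLC6A2, the noradrenaline transporter gene, starts 266 kb away and went from 10.99 ± 0.36 to 21.5 ± 1.26 FPKM (SD, n = 3 each), a log2 difference of 0.91 (limma adjusted p = 0.000122). AC136621.1 had a log2 fold change of 0.83 and GNAO1, a G protein subunit gene 802 kb away, one of 0.28. The nearest tested genes on the other side, IRX5 and CRNDE, did not pass (limma adjusted p = 0.522 and 0.463). Around MMP15 the nearest tested gene before it, USB1, had a log2 fold change of 0.06 (limma adjusted p = 0.317).

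**Figure D4:**
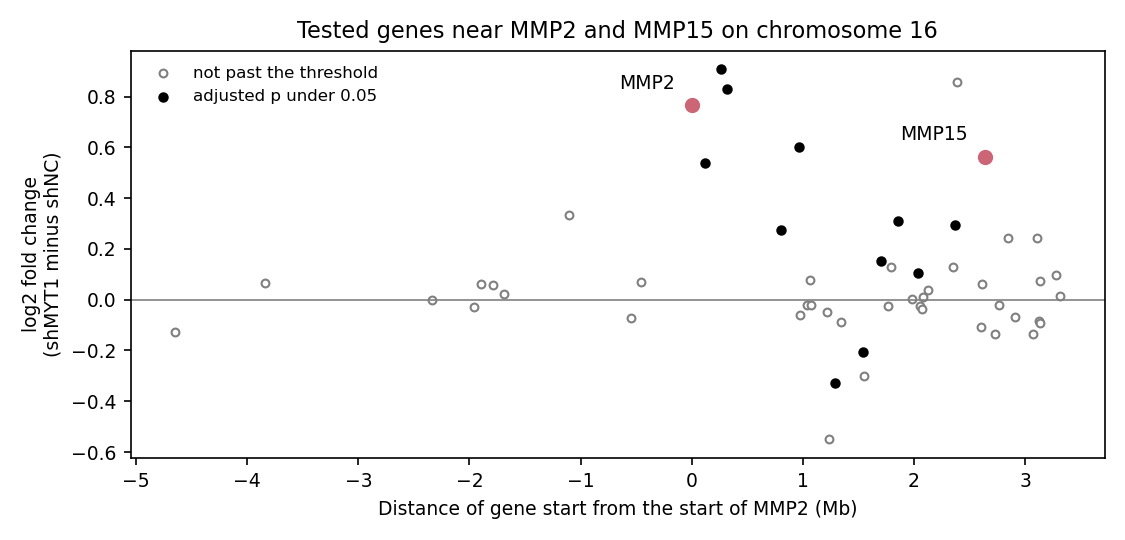
Log2 fold change (shMYT1 minus shNC) of tested genes by the distance of their start from the start of MMP2, in Mb; filled points passed the threshold, open points did not, and MMP2 and MMP15 are in red. The genes that directly follow MMP2 are raised, none of the plotted genes before it passed, and no direct neighbour of MMP15 passed.

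Promoter sequence was available for 7 of the 10 members in the RefSeq table (GRCh38.p14), each window running from 250 bases before to 50 bases after the annotated start. MMP2, MMP16 and TIMP2 are named only. The windows of the 4 metalloproteinases are shown, each up to the first exon base that GENCODE 29 annotates within the window, because 1 of these genes rose and 3 fell. For MMP15, MMP14 and MMP24 that base is the start of the gene. The MMP11 stretch precedes the first exon of its coding transcript and lies inside the gene span given above, in an intron of longer noncoding MMP11 transcripts. They are 5′ to 3′ on the plus strand, and capitals mark the GC box GGGCGG and the nuclear receptor half-site AGGTCA on either strand.
MMP15: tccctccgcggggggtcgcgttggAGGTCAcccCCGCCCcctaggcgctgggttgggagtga
MMP11: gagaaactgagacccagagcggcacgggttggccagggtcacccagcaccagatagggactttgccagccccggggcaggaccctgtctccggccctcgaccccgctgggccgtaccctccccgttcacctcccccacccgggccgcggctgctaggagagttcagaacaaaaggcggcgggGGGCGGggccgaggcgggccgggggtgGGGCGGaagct
MMP14: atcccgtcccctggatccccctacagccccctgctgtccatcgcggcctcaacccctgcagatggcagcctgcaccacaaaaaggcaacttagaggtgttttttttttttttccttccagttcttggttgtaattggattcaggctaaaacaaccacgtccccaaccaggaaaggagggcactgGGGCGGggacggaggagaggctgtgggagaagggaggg
MMP24: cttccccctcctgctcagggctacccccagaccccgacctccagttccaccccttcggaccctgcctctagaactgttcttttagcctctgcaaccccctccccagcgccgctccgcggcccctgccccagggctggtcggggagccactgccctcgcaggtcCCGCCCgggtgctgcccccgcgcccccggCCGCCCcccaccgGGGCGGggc
The stretches are chr16:58025504-58025565, chr22:23772599-23772818, chr14:22836335-22836556 and chr20:35226440-35226653. In the full 300-base windows the GC box, searched on both strands and counting matches that overlap another, was found 5 times in MMP15, 4 times in MMP11, 3 times in MMP24 and once in MMP14. It was in all 7 member windows and in 45.0% of the 35116 promoters of the table. The half-site AGGTCA, the unit that retinoic acid and other nuclear receptors bind, was found 1 time in MMP15 and 0 times in the other 6 windows, and 13.8% of all promoters hold it. The core AAAGTT, bound by zinc fingers of the MYT1 family, was in none of the 7 windows and in 12.7% of all promoters. TATAAA, the AP-1 site TGANTCA and the E-box CACGTG were in none of the 7 either, against 11.5%, 7.7% and 7.3% of all promoters. These are matches of letters only.

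The other metalloproteinase genes were mostly under the filter. Of 17 listed, 11 were in the table, 2 were tested, and the 9 under the filter averaged at most 0.309 FPKM in either group. MMP1, the interstitial collagenase gene, rose from 16.2 ± 0.41 to 21.1 ± 0.47 FPKM (SD, n = 3 each), a log2 difference of 0.37 (limma adjusted p = 0.000711), and its groups did not overlap. It shares 150 exon bases with WTAPP1 on the opposite strand. MMP17 was at 5.59 and 5.92 FPKM and did not pass. Of 7 other inhibitor genes, 2 were tested: SPOCK1, a testican gene, rose from 5.34 to 7.15 FPKM and SPOCK2 fell from 3.08 to 1.84 FPKM. TIMP4 averaged 0.144 and 0.120 FPKM.

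Genes that activate metalloproteinases or clear them from the cell surface rose more often than they fell. Of 20 listed, 14 were tested, 8 rose and 1 fell, beside 11.9% and 12.3% of all tested genes. The median log2 fold change of the 14 was 0.25, against -0.005 for all tested genes. Without the filter 7 rose. One of the 8, PLAUR, the urokinase receptor gene, lost its call with its neighbours on chromosome 19 removed, where its log2 difference was 0.10 in place of 0.39 (limma adjusted p = 0.39). PLAU, the urokinase gene, went from 1.69 to 2.96 FPKM, and PLAT, the tissue plasminogen activator gene, from 8.31 to 11.4 FPKM. With its neighbours on chromosome 8 removed, the log2 difference of PLAT was 0.65 in place of 0.42. THBS2, whose protein is known to promote uptake of MMP2 through LRP1, fell from 1.95 to 0.900 FPKM, while the receptor gene LRP1 went from 5.29 to 6.54 FPKM. FURIN, the convertase gene, was at 9.16 and 10.2 FPKM and did not pass (limma adjusted p = 0.0801).

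The related ADAM and ADAMTS families held calls in both directions, where 11.9% of all tested genes rose and 12.3% fell. Of 12 ADAM genes 9 were tested, 4 rose and 2 fell, with a median of -0.02. ADAM12 went from 5.84 to 8.85 FPKM and ADAM15 from 11.7 to 13.7 FPKM, while ADAM11 went from 4.29 to 3.13 and ADAM23 from 11.9 to 9.97 FPKM. Of 19 ADAMTS genes 12 were tested, 6 rose and 1 fell, with a median of 0.17. The 1 that fell, ADAMTS1, lost its call with its neighbours removed, where its log2 difference was -0.07 in place of -0.15 (limma adjusted p = 0.304). ADAMTS7 rose from 13.4 to 19.4 FPKM, ADAMTS10 from 2.11 to 3.28, ADAMTS19 from 11.7 to 15.8 and ADAMTS3, a procollagen-processing enzyme, from 10.1 to 13.6. The log2 difference of ADAMTS3 went from 0.39 to 0.23 with its neighbours removed. The call of ADAMTS10 was lost without shNC replicate 2 (adjusted p = 0.0533) or shMYT1 replicate 3 (adjusted p = 0.0509).

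Among proteins that metalloproteinases cleave, both directions were frequent: of 24 listed genes 20 were tested, 9 rose and 7 fell, with a median of 0.14. Beside these genes and the RECK partners below, 11.9% of all tested genes rose and 12.3% fell. FN1, the fibronectin gene, went from 18.1 to 31.6 FPKM and CXCL12, a chemokine that MMP2 cleaves, from 3.66 to 8.49 FPKM. LUM, a small proteoglycan gene, went from 97.7 to 54.6 FPKM and IGFBP3 from 77.1 to 47.2 FPKM. Of 6 RECK partners 4 were tested, 1 rose and 2 fell. ADGRA2, the adhesion receptor that acts with RECK, went from 36.1 to 31.1 FPKM, FZD4 from 1.75 to 1.21 and LRP5 from 33.4 to 38.3. None of these 3 calls was steady. That of ADGRA2 was lost once its neighbours on chromosome 8 were removed (log2 fold change -0.01 in place of -0.21, adjusted p = 0.833), and those of FZD4 and LRP5 were lost in 8 of 15 and 5 of 16 alternatives. FZD4 was lost without any 1 of shNC replicates 1 to 3 or shMYT1 replicates 1 and 2 (adjusted p = 0.0577 to 0.115), and LRP5 without shNC replicate 1 or 2 or shMYT1 replicate 1 or 3 (adjusted p = 0.0707 to 0.0841).

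Of 20 transcription factors known to act on metalloproteinase genes, 16 were tested, with a median of -0.10. Of these 3 rose, 4 fell and 9 did not pass, where 11.9% of all tested genes rose and 12.3% fell. The members named by size all fell. SNAI2 went from 25.9 to 17.0 FPKM, with a log2 difference of -0.58 that became -0.32 once its neighbours on chromosome 8 were removed. JUND, a subunit of AP-1, went from 58.6 to 43.8, ETV1 from 8.17 to 6.12 and TWIST1 from 135 to 105 FPKM. FOSL1, FOSL2 and ETS1, the 3 that rose, had log2 fold changes of 0.29, 0.19 and 0.25.

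**Figure D5:**
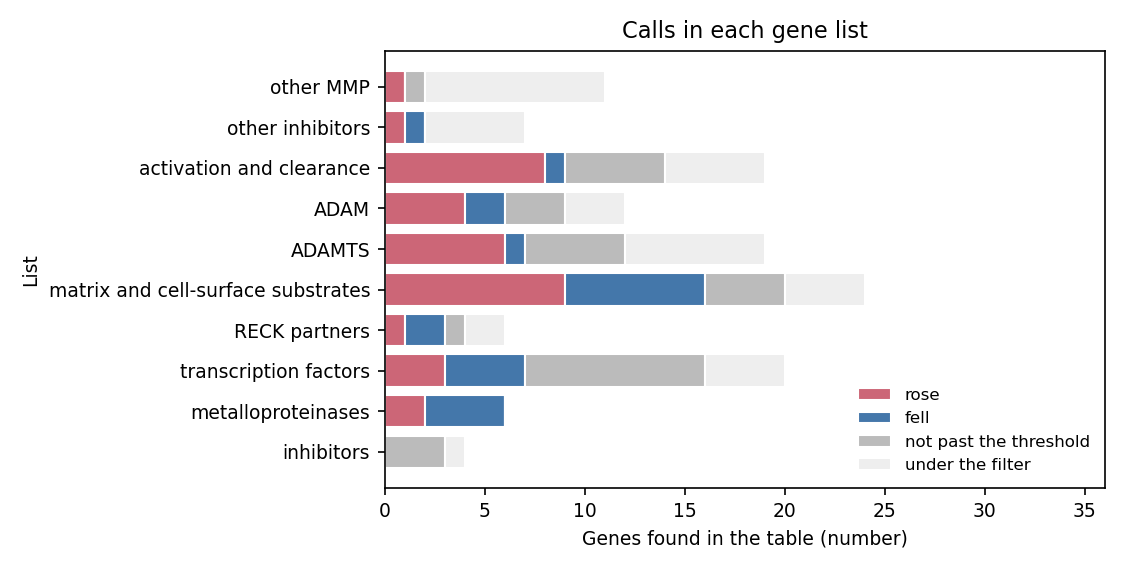
Number of genes of each list found in the table, divided into those that rose, fell, did not pass the threshold or were under the filter of 1 FPKM. The 6 metalloproteinases all carry a call, 2 up and 4 down, the inhibitors carry none, and the activation and clearance list has 8 up and 1 down. Of all tested genes 11.9% rose and 12.3% fell.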

How the data were processed

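RNA of 3 shNC and 3 shMYT1 libraries was measured. The authors deposited 1 table of FPKM, and alignment and counting tools named in the submitters' processing notes are HISAT2 2.0.5 with featureCounts 1.5.0-p3, on hg38. Which annotation, strand option or filter was applied is not given in the sources used here. Of the IDs, 99.59% were found in GENCODE 29. Multiplying FPKM by exon length gave whole fragment numbers, within 0.01, for 95.4% of these and for every member.

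Genes were tested with limma 3.58.1 in R 4.3.3 with a variance trend, without a replicate block. The members and gene lists were chosen with earlier results of these data known, so no p is adjusted over a list alone and no list carries a test of its own. Named were MYT1, all members, up to 4 passing genes per pathway list with the largest change (otherwise the highest gene), and the 5 protein-coding genes of at least 5 FPKM closest to MMP2 by Pearson correlation. Further names are given where a statement needs them, and these were chosen after their values were seen. One gene that this rule names is not reported here. Ratios were tested by exact permutation. Replicates differed by more than counting noise (chi-square per gene 2.09 to 3.41), and none were merged. The method was tested on simulated data of 14070 genes, with 50 genes changed at each fold. It recovered 22 at 1.25-fold, 36 at 1.5-fold, 42 at 2-fold and 47 at 4-fold, with 11 false calls. Small changes can therefore go uncalled. Alternatives varied pseudocount, filter, scaling, variance model, chromosomal neighbourhood and libraries.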

Additional observations from a re-analysis of the deposited data

How the results depend on the processing

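In each of the 6 fits that left out 1 library, 6 members passed, 2 up and 4 down, as in 8 of the other alternatives. With a minimum of 5 FPKM, 1 member rose instead of 2, because MMP15 was then not tested, and 5 passed in all. With the neighbouring genes removed 5 passed, MMP16 being lost. Over the alternatives the log2 fold change of MMP2 was 0.73 to 0.80, of MMP15 0.45 to 0.71, of MMP11 -0.45 to -0.39, of MMP14 -0.27 to -0.20 and of MMP24 -0.43 to -0.33, all past the threshold where tested. With the replicate block 3381 of all genes passed, against 3420 without it, and the member counts did not change. Deviations of same-numbered libraries correlated at 0.033, 0.013 and 0.043, each library correlating best with its own number, which pairs nothing by design, and the FZD4 call was lost under the block (adjusted p = 0.0802). The ratio differences were 0.75, -0.26 and 0.33 under the block, with a smallest possible sign-flip p of 0.25.

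Leaving out 1 library gave 2038 to 3048 genes past the threshold, 1018 to 1579 up and 1020 to 1469 down, the number falling by over 1.5 times without shNC replicate 1 (2195), shNC replicate 2 (2038) or shMYT1 replicate 1 (2196). These fits have fewer samples. The log2 fold change of TIMP1 was -0.0092 to 0.0762 over these fits, below 0 without shNC replicate 1, and that of TIMP2 was -0.0167 with libraries rescaled to the same total and -0.0017 with quantile normalization. The summed ratio reversed to -0.31 without MMP2 and TIMP2, which follows from those 2 genes being left out. With no filter on low values, and so more genes sharing the adjustment, 2 ADAMTS genes fell instead of 1, and of the RECK partners 0 rose and 1 fell. In the same fit 7 activation and clearance genes rose instead of 8, 10 substrates rose and 6 fell instead of 9 and 7, and 5 transcription factors fell instead of 4. Depth limits TIMP3, with 29 to 47 fragments.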

Other observations

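The 5 protein-coding genes averaging 5 FPKM or more whose log2(FPKM + 1) followed MMP2 most closely over the 6 libraries were ARHGAP35, TENM3, CAVIN1, LAMP5 and SAE1, among 7260 ranked, with Pearson correlations of 0.9988 to 0.9997. The 6 points fall into the 2 groups and share libraries and scaling, so the values mostly repeat the group difference. TENM3, which encodes a teneurin of the cell surface, went from 8.25 ± 0.21 to 12.8 ± 0.28 FPKM, and CAVIN1, a component of caveolae, from 7.09 ± 0.12 to 10.5 ± 0.17 FPKM (SD, n = 3 each). LAMP5 went from 28.4 to 37.6 FPKM. ARHGAP35 went from 10.8 to 13.8 FPKM and SAE1 from 39.4 to 49.8 FPKM. The last 2 lie on chromosome 19, where the 50 nearest tested genes of each showed a median change of 0.32 on the log2 scale, and neither passed after those neighbours were removed (limma adjusted p = 0.84 and 0.761).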
